A study of Mus musculus with 745 samples.

Results

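The Ly6 genes are a family of small surface proteins, and 4 of them were followed here in single endothelial cells of the mouse brain: Ly6a, Ly6c1, Ly6e and Ly6c2. They were chosen by symbol, as 4 of the 20607 rows of the count table. Mice were 3 months old; their brains were dissociated with a kit for neural tissue, and cells were taken by fluorescence-activated sorting as primary brain endothelial cells and sequenced singly. Titles place the cells in 3 sets, Young1 with 30.2% of cells, Young2 with 34.6% and AY_Y3 with 35.2%. The labels name no treatment, genotype or strain, and do not say how many mice stand behind a set. Each set was therefore taken as 1 sample, and cells were not taken as replicates. In the main tests p-values measure how far differences between groups of cells vary from set to set, with the overall level of a set taken out. That variation may be partly technical.

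Ly6 proteins are held on the outer face of the membrane by a glycosylphosphatidylinositol (GPI) anchor and fold into an LU domain, the module they share with the urokinase receptor. Ly6a, also called Sca-1, is a marker of mouse blood stem cells and of brain endothelium, and in mice that carry the permissive allele it is the receptor that lets the engineered virus capsid AAV-PHP.B cross into the brain. Ly6c1 and Ly6c2 together encode the Ly6C antigen, known from brain vessels and from inflammatory monocytes. Ly6e is an interferon-induced protein that in mice also restricts the entry of coronaviruses. Ly6a and Ly6c1 are likewise known as genes that rise under interferon in many mouse cells. Along the vessel tree, arterial, capillary and venous endothelial cells can be told apart by markers such as Bmx and Gkn3, Cxcl12 and Rgcc, and Nr2f2 and Il1r1.

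All 4 genes lie on chromosome 15 within one stretch in the GENCODE M21 annotation of build GRCm38. Ly6e (ENSMUSG00000022587.14) lies at chr15:74955051-74959905 on the plus strand. The other 3 lie on the minus strand, Ly6a (ENSMUSG00000075602.10) at chr15:74994877-74998031, Ly6c1 (ENSMUSG00000079018.10) at chr15:75044018-75048830 and Ly6c2 (ENSMUSG00000022584.14) at chr15:75108158-75111970. Ly6c1 and Ly6c2 are near-identical copies. Their coding sequences have 396 bases each and differ at 9 of them, an identity of 97.7%. Ly6c1 and Ly6a coding sequences were identical at 82% of aligned positions, Ly6c1 and Ly6e at 50.1%, and Ly6a and Ly6e at 53.1%. The stretch that best separates Ly6c1 from Ly6c2 spans coding bases 6 to 65, which hold 6 of the 9 differences, shown here in capitals:
Ly6c1: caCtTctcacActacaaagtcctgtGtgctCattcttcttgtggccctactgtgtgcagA
Ly6c2: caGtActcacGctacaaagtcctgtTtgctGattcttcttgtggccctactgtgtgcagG
The longest stretch the pair shares without a difference follows directly, from coding base 66 on, and a read that falls inside it can belong to either gene:
Ly6c1 and Ly6c2: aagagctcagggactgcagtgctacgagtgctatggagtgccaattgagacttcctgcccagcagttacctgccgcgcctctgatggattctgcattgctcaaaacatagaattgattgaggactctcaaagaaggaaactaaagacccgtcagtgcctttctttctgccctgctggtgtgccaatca
Of all 50-base windows along the Ly6c2 transcript, 32.6% occur unchanged in a Ly6c1 transcript. How the authors counted such reads is not stated in the labels, so every value of this pair, above all of Ly6c2, is uncertain.

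Interferon acts on promoters through known sequence motifs, so promoters were searched in the RefSeq promoter table (GRCm38.p6), which holds Ly6c1 and Ly6c2. The 250 bases upstream of a start site of each are shown and lie at chr15:75048838-75049087 for Ly6c1 and at chr15:75111972-75112221 for Ly6c2, both on the minus strand and written 5′ to 3′, with a TATAAA match in capitals:
Ly6c1: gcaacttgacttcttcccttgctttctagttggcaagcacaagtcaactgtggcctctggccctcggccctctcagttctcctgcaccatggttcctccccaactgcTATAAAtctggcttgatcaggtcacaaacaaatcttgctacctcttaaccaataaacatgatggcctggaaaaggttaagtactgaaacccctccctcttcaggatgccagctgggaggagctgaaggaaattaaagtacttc
Ly6c2: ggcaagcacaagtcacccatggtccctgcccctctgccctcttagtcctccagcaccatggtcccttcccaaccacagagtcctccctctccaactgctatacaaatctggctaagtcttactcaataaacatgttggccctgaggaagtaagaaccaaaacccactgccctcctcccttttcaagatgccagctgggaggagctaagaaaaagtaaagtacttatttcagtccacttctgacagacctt
Both strands of the full 300-base promoters were read. The core of the interferon-stimulated response element, GAAA repeated after any 2 bases, occurs in 3.44% of the 32851 promoters in the table and in none of the 4 entries of this pair. The gamma-activated site, TTCNNNGAA, occurs in 8.30% of promoters and again in none of the 4. TATAAA occurs in 13.6% of promoters and once here, in the Ly6c1 window shown. That match lies at position -143 from the start site, and the window of the other Ly6c1 start site holds none. Whether it acts as a TATA box was not tested. The full 300-base promoters behind the stretches printed aligned over 282 positions with 73.8% identity. Over all pairings of the start sites identity ran from 72.9% to 88.3%, with the higher values over shorter alignments. Each lay under the identity of the coding sequences. A missing match says only that these letters are not in these windows.

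Read depth ran from 52819 to 2421434 counts per cell, with medians of 757949 in Young1, 713031 in Young2 and 411397 in AY_Y3. The sorted label was checked against marker genes. Clusters of 25 wells with 10 of 10 pericyte markers raised and of 19 wells with 5 of 9 astrocyte markers raised were set aside, which left 701 endothelial cells (30.5% of them in Young1, 33.95% in Young2 and 35.5% in AY_Y3). Pericyte wells held summed pericyte markers of 24026 ± 2839 CPM (counts scaled to a library of 1000000; SD, n = 3 sets) and still held summed endothelial markers of 9604 ± 1941 CPM. Erythroid and neutrophil markers were at or near 0 in all groups, and Ptprc, the pan-leukocyte gene, had 5 counts in 5 cells.

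Ly6a and Ly6c1 were among the strongest genes of the table. Ranked by mean CPM over all cells, Ly6c1 stood at place 8 and Ly6a at place 11 of 20607, Ly6e at place 76 and Ly6c2 at place 11716. Nearly every cell carried the first 3. A count of Ly6a was found in 742 cells (99.6% of all, exact 95% binomial interval 98.8 to 99.9%), of Ly6c1 in 744 (99.9%, 99.2 to 100%) and of Ly6e in 738 (99.1%, 98.1 to 99.6%). These intervals cover counting error only, and reads without molecular identifiers are not independent molecules.

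Pooled over the cells of a set, Ly6a had 6287 CPM in Young1, 5096 in Young2 and 6183 in AY_Y3. Ly6c1 had 7415, 6767 and 7972 CPM in the same sets, so Young2 was lowest for both. Ly6e had 1457 CPM in Young1, 1273 in Young2 and 926 in AY_Y3, and the set lowest in Ly6e was thus not the one lowest in the other genes. Ly6c2 had 1.43, 1.07 and 1.51 CPM. Per kilobase of exon, with the exons of all coding transcripts joined, Ly6a averaged 4859 ± 548 CPM per kb, Ly6c1 4403 ± 360, Ly6e 485 ± 107.3 and Ly6c2 1.54 ± 0.27 (SD, n = 3 sets). Ly6a and Ly6c1, neighbours in that order, lay close: Ly6a had 5217, 4229 and 5131 CPM per kb in Young1, Young2 and AY_Y3, and Ly6c1 4421, 4035 and 4754. On these lengths Ly6a was the higher in each set, while the values of both genes overlapped between sets. The joined exons have 1205 bases for Ly6a and 1677 for Ly6c1, while a single Ly6c1 transcript has 844 bases. The order of Ly6a and Ly6c1 can thus change with the length taken, and they are not ranked here. Ly6a and Ly6c1 each stood above Ly6e by far more than the spread between sets.

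Relative to its level, Ly6e differed more between cells than Ly6a and Ly6c1 did. Over all cells the interquartile range lay between 3756 and 7386 CPM for Ly6a, between 5303 and 9436 CPM for Ly6c1, and between 601 and 1617 CPM for Ly6e. The cells at the 5th and the 95th percentile had 1592 and 11210 CPM of Ly6a, 3102 and 13963 CPM of Ly6c1, and 45 and 2814 CPM of Ly6e. Ly6e thus had a long lower tail, and 719 cells reached 20 CPM of it, against 742 for Ly6a and 744 for Ly6c1. Thinned to 50000 counts a cell, the share of cells with Ly6e was 97.4% and the shares with Ly6a and Ly6c1 did not change. The wells set aside carried the genes too. Pericyte wells had 3507 CPM of Ly6a, 5349 of Ly6c1 and 787 of Ly6e, and astrocyte wells 4962, 7496 and 1080 CPM, against 5924, 7372 and 1281 CPM in the endothelial cells. Whether endothelial RNA in those wells accounts for these levels was not tested.

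**Figure D1:**
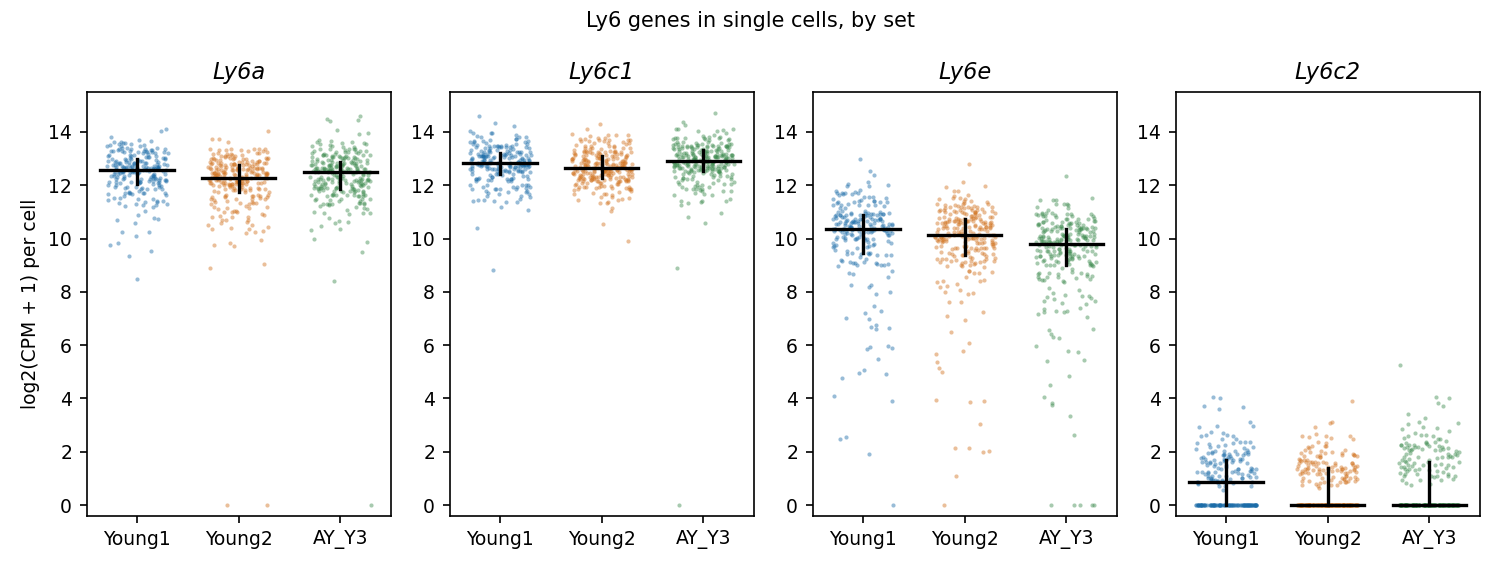
Level of each Ly6 gene per cell, as log2(CPM + 1) on the vertical axis, for the 3 sets on the horizontal axis; each point is 1 cell, and the black bars give the median and the quartiles. Ly6a and Ly6c1 form a tight band in every set, Ly6e has a lower tail, and most cells lie at or near 0 for Ly6c2.

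Ly6c2, the copy known from monocytes, was barely present. It had 689 reads in all, against 3836738 for Ly6c1, or 1.80 Ly6c2 reads per 10000 Ly6c1 reads (exact 95% interval 1.66 to 1.94). A read was seen in 349 cells (46.8% of all, 43.2 to 50.5%), but 273 of these held no more than 2 reads, the highest cell held 13, and 1 cell reached 20 CPM. Thinned to 50000 counts, 6.58% of cells kept a read. Its ratio to Ly6c1 was 1.93 per 10000 in Young1, 1.58 in Young2 and 1.90 in AY_Y3.

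Reads of either gene grow with the depth of a cell, so the ratio of the pair was taken along the reads of Ly6c1. With cells ordered by their Ly6c1 reads and divided in 4 equal parts, the ratio was 1.35, 1.41, 1.55 and 2.11 per 10000 from the lowest to the highest part, with exact 95% intervals of 0.94 to 1.87 in the lowest and 1.91 to 2.33 in the highest. In pericyte wells the ratio was 1.74 and in astrocyte wells 1.34 per 10000, both inside intervals that take in the value over all cells (1.03 to 2.74 and 0.78 to 2.14). All these intervals treat pooled reads as independent and cover counting error only. Of the genes known from monocytes, Ccr2, the chemokine receptor of inflammatory monocytes, had 4 counts in 4 cells, and Lyz2, the lysozyme of myeloid cells, 6 counts in 6 cells, Itgam 44 counts in 23 cells and Cd14 3351 counts in 12 cells. Whether Ly6c2 reads are misassigned reads of Ly6c1 was not tested.

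**Figure D2:**
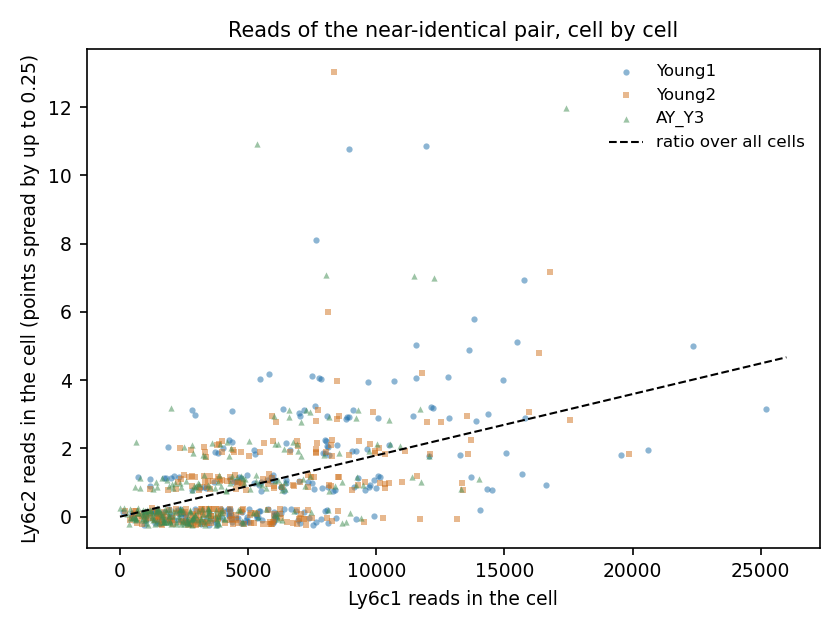
Reads of Ly6c2 (vertical axis) against reads of Ly6c1 (horizontal axis), with 1 point per cell and the 3 sets marked apart; points are spread vertically by up to 0.25 for view, and the dashed line is the ratio over all cells, 1.80 per 10000. Cells with more Ly6c1 reads hold more Ly6c2 reads, and no cell exceeds 13 Ly6c2 reads. Reads of both genes grow with depth, and the part of depth in this pattern was not tested.

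Segments of the vessel tree were compared next. Endothelial cells were clustered on segment markers alone, none of them a Ly6 gene, and clusters were named by those markers: 25.4% of the 701 cells were arterial-like (49 in Young1, 68 in Young2 and 61 in AY_Y3), 16.98% venous-like (32, 44 and 43) and 348 cells capillary-like (50.5%, 46.6% and 51.8% of the endothelial cells of those sets), with 56 cells left unnamed. The venous-like cluster had 7 of 15 venous and also 6 of 11 capillary markers raised. For the tests, the deposited counts of a class were added up within each set. The markers that define the classes moved as chosen, and are given only as a check: Bmx, a kinase of arterial endothelium, had 160.7 ± 64.1 CPM in arterial-like, 15.9 ± 12 in venous-like and 2.6 ± 4.0 in capillary-like cells (SD, n = 3 sets), while Il1r1, the interleukin receptor of venous cells, had 3.95 ± 4.79, 289.7 ± 9.1 and 12.9 ± 2.4 CPM.

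Among the named classes, Ly6a and Ly6c1 were highest in arterial-like cells, Ly6c1 was lowest in venous-like cells, and Ly6e was level. Between arterial-like and capillary-like cells Ly6a and Ly6c1 rose, and Ly6e and Ly6c2 did not pass the test. Of the 9123 genes tested 1.87% passed in either direction, and 0.866% were called higher; 2 of the 4 members were among these.

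Ly6a had 7702 CPM in Young1, 6199 in Young2 and 7774 in AY_Y3 in arterial-like cells, against 5455, 4421 and 5732 CPM in capillary-like cells. Every arterial-like value stood above every capillary-like one. The fitted log2 difference was 0.48 ± 0.06 (SE), with an adjusted p of 0.00811 in edgeR's quasi-likelihood test over all genes. Ly6c1 had 8908, 8395.5 and 10277 CPM in arterial-like cells, against 6993, 6323 and 7471 CPM in capillary-like cells, again without overlap. Its log2 difference was 0.41 ± 0.05 (edgeR adjusted p = 0.00604).

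Both calls rested on all 3 sets and on the comparison within sets. With any 1 of the sets left out, the adjusted p in edgeR was 0.0914 to 0.103 for Ly6a and 0.0619 to 0.111 for Ly6c1, with log2 differences of 0.48 to 0.50 and 0.38 to 0.46, and without the replicate block for set it was 0.161 and 0.164. Smooth muscle markers moved with the class: all 8 of the list had counts in both classes, and their summed level was 151.9 to 529 CPM in arterial-like and 25.9 to 85.5 CPM in capillary-like cells. Of 10 microglia or macrophage markers, 5 had counts in arterial-like and 10 in capillary-like cells, with summed levels of 78.4 to 89.1 and 36.7 to 66.3 CPM (P2ry12, Tmem119, C1qa, C1qb and Aif1 at 0 in arterial-like cells). Pericyte markers were lower in arterial-like cells in each set, with sums of 423, 314 and 99.5 CPM in arterial-like cells (9 of 10, Atp13a5 at 0), against 617, 407 and 421 CPM in capillary-like cells (9 of 10, Cspg4 at 0). Oligodendrocyte markers were also lower in arterial-like cells in each set. Their sums were 1220, 1136 and 1349 CPM (7 of 8, Mog at 0), against 1272, 1315 and 3530 CPM in capillary-like cells (8 of 8). Endothelial markers (13 of 13 in both classes) summed to 12466 to 13189 CPM in arterial-like and 15833 to 16222 CPM in capillary-like cells. The part of these marker lists in the result was not tested. Without the cells highest in mural markers the log2 differences were 0.49 (adjusted p = 0.0111) for Ly6a and 0.41 (adjusted p = 0.00854) for Ly6c1 in edgeR, and without the cells highest in interferon genes they were 0.50 (0.0142) and 0.44 (0.0111).

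Ly6e had 1491, 1304 and 925 CPM in arterial-like cells, against 1401, 1347 and 942 CPM in capillary-like cells, and its order differed between sets. The log2 difference was 0.01 ± 0.10 (edgeR adjusted p = 0.985). Ly6c2 had 1.86, 1.68 and 2.56 CPM in arterial-like cells, against 1.16, 0.77 and 1.09 CPM in capillary-like cells. Its values did not overlap, but they come from 36.9% and 34.1% of its 689 reads, and the log2 difference of 1.02 ± 0.40 did not pass (edgeR adjusted p = 0.387). The ratio of Ly6c2 to Ly6c1 reads was 2.17 per 10000 in arterial-like cells (exact 95% interval 1.91 to 2.45) and 1.46 in capillary-like cells (1.28 to 1.66), and it was higher in arterial-like cells in each of the 3 sets.

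Between arterial-like and venous-like cells, Ly6c1 showed the widest difference among the calls of the 4 genes. Here 2.84% of 9123 genes passed in either direction and 1.59% were called higher; Ly6a and Ly6c1 were again among them. Venous-like cells had 6244, 5592 and 6417 CPM of Ly6c1, under all 3 arterial-like values given above. The log2 difference, arterial-like over venous-like, was 0.64 ± 0.05 (edgeR adjusted p = 0.00125), and it stayed below the threshold with each set left out (0.0175 to 0.0316) and without the replicate block (0.0200), as it did in all 14 alternatives. Ly6a had 6128, 5322 and 5768 CPM in venous-like cells, and all 3 arterial-like values stood above these, that of Young2 (6199 CPM) only just above the 6128 CPM of Young1. The log2 difference was 0.37 ± 0.06 (edgeR adjusted p = 0.0169). That call was lost with any 1 of the sets left out (0.0872 to 0.181), without the replicate block (0.239) and in 8 of the 14 alternatives in all. Ly6e and Ly6c2 did not pass, with log2 differences of 0.06 ± 0.10 and 0.76 ± 0.40 (edgeR adjusted p = 0.834 and 0.456). Other markers moved with these classes too, and their part in the result was not tested. Of 8 oligodendrocyte markers 7 had counts in arterial-like cells (Mog at 0) and 6 in venous-like cells (Mog and Mag at 0), with sums of 1136 to 1349 CPM and 1818 to 2019 CPM. Microglia or macrophage markers summed to 78.4 to 89.1 CPM in arterial-like cells (5 of 10) and 36.2 to 64.2 CPM in venous-like cells (7 of 10, with C1qb, Aif1 and Tyrobp at 0). Pericyte markers summed to 99.5 to 423 CPM in arterial-like cells (9 of 10) and 415 to 525 CPM in venous-like cells (10 of 10), and were lower in arterial-like cells in each set. Monocyte markers summed to 0.00 to 3.74 CPM in arterial-like cells (3 of 4, Ccr2 at 0) and 11.7 to 35.5 CPM in venous-like cells (3 of 4, Lyz2 at 0). Endothelial markers (13 of 13 in both classes) summed to 12466 to 13189 CPM in arterial-like and 14616 to 16519 CPM in venous-like cells.

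No gene passed between venous-like and capillary-like cells in edgeR, 0% of 9123, although 589 had an unadjusted p under 0.05, and 150 passed in DESeq2 and 3099 in limma on mean log2 values. Ly6c1 was lower in venous-like than in capillary-like cells in each set, with a log2 difference of -0.23 ± 0.05 and an unadjusted p of 0.00153, but an adjusted p of 0.222 in edgeR (0.160 to 0.991 over 14 alternatives). Ly6a had a log2 difference of 0.11 ± 0.06 (edgeR adjusted p = 0.844) and Ly6e one of -0.05 ± 0.10 (0.979). In limma on the mean of log2(CPM + 1) per cell, which gives every cell the same weight, Ly6a was 0.40 higher (adjusted p = 0.0304), while the median over all genes was itself 0.50 higher. Venous-like cells had a median of 3090 detected genes, against 1960 in capillary-like cells. Whether Ly6c1 and Ly6a differ in how they change between these classes was not tested.

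**Figure D3:**
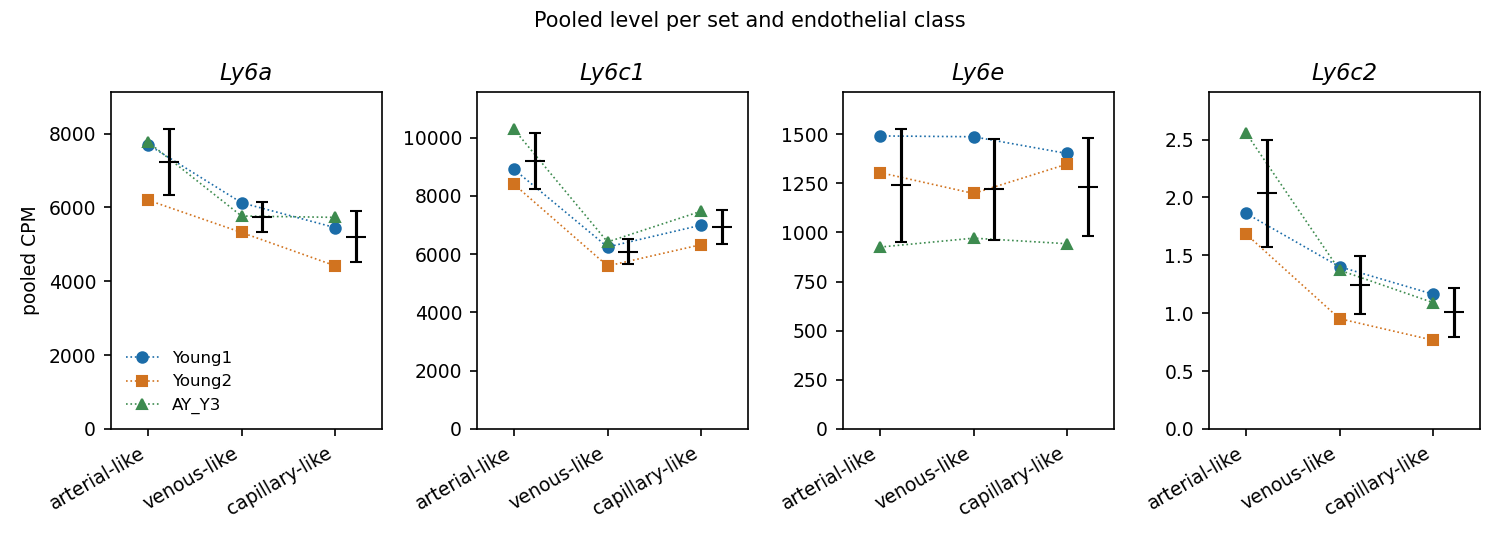
Pooled CPM (vertical axis, from 0) of each Ly6 gene in arterial-like, venous-like and capillary-like cells, with 1 marker per set joined by dotted lines and the mean ± SD of the 3 sets in black. Ly6a and Ly6c1 lie highest in arterial-like cells in each set, Ly6c1 lies lowest in venous-like cells, and Ly6e differs more between sets than between classes.

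The classes were not uniform. The arterial-like class held a cluster of 110 cells led by Lypd1 and Hey1, a Notch target of arteries, and another of 68 cells led by Fbln5, an elastic fibre gene of larger vessels, and Pi16. In the first, Ly6c1 averaged 9885 ± 977 CPM and Ly6a 7600 ± 765 (SD, n = 3 sets). In the second, Ly6c1 averaged 7667 ± 1474 and Ly6a 6352 ± 1338 CPM, values that overlap those of the capillary-like clusters, which ran from 6358 to 7513 CPM of Ly6c1 and from 4246 to 5880 CPM of Ly6a. Ly6e had 1178 ± 260.8 and 1380 ± 380 CPM in the same arterial-like clusters. The unnamed cells had 6736 ± 1126 CPM of Ly6a, 7929 ± 346 CPM of Ly6c1 and 1335 ± 503 CPM of Ly6e. By set, their Ly6a was 7962 CPM in Young1, 6498 in Young2 and 5748 in AY_Y3. Arterial-like cells had 7702, 6199 and 7774 CPM in the same sets, so the unnamed cells were higher in Young1 and Young2 only.

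Single markers were then used without any clustering. Cells with at least 20 CPM of a marker were set against cells below it within each set, as a description with no test. In the 16.1% of endothelial cells with Bmx, Ly6c1 had 7976 CPM in Young1, 8350 in Young2 and 10046 in AY_Y3, against 7412, 6480 and 7435 CPM in the cells without it, a mean log2 difference of 0.30 ± 0.17 (SD, n = 3 sets). Ly6a was higher with Bmx by 0.29 ± 0.14. In the 56 cells with Gkn3, a gastrokine known from brain arteries, the mean log2 differences were 0.35 ± 0.16 for Ly6c1 and 0.30 ± 0.16 for Ly6a. These 4 differences were positive in 3 of 3 sets at this limit. With at least 100 CPM of the marker they did not all hold: Ly6c1 in Young1 had 6944 CPM with Bmx, against 7490 CPM without it, and 7090 CPM with Gkn3, against 7484 CPM without it, and Ly6a in Young1 had 5562 CPM with Bmx, against 6434 CPM without it. The mean log2 differences at that limit were 0.18 ± 0.27 for Ly6c1 and 0.15 ± 0.31 for Ly6a with Bmx, and 0.27 ± 0.30 for Ly6c1 with Gkn3, each positive in 2 of 3 sets, while Ly6a with Gkn3 had 0.27 ± 0.21 and was positive in 3 of 3. At 20 CPM, Ly6e differed by 0.06 ± 0.06 with Bmx and by 0.19 ± 0.29 with Gkn3, with 1 set in the opposite direction each time.

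Venous markers went with less Ly6c1. The cells without them include most arterial-like cells, in which Nr2f2 was detected in 3.37% and Il1r1 in 3.93%. Arterial-like cells had the most Ly6c1 of the named classes, and their part in these differences was not tested. In the 15.1% of endothelial cells with Nr2f2, the transcription factor of venous identity, Ly6c1 had 6591, 5705 and 6942 CPM, against 7628, 7105 and 8208 CPM in the 595 cells without it, a mean log2 difference of -0.26 ± 0.05. In the 15.98% with Il1r1 it was -0.28 ± 0.11, and in the 60 cells with both it was -0.36 ± 0.08 against the 543 cells with neither. Each was negative in 3 of 3 sets, also at 100 CPM of the marker, where the means were -0.30, -0.29 and -0.38. Ly6a differed by -0.06 ± 0.13 with Nr2f2 and by 0.00 ± 0.12 with Il1r1, and Ly6e by 0.06 ± 0.06 and 0.00 ± 0.07, all within the spread between sets or near it.

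In the 607 cells with Cxcl12, a chemokine of vessel walls, Ly6c1 had 7635, 7004 and 8278 CPM, against 6402, 5475 and 6435 CPM in the 94 cells without it, a mean log2 difference of 0.32 ± 0.06. In the 466 cells with Rgcc, a cell cycle regulator of capillary cells, Ly6c1 differed by -0.04 ± 0.05, and Ly6a was lower in all 3 sets by a small margin, -0.11 ± 0.02. Cxcl12 was present in each class: its pooled level was 1658 ± 341 CPM in arterial-like, 955 ± 265 in venous-like and 3339 ± 17 in capillary-like cells.

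Ifit3 and Isg15, both antiviral genes that interferon induces, were present in a minority of cells. Over all cells, Ifit3 was detected in 20.1% and Isg15 in 31.3%. In the endothelial cells, 56 had at least 20 CPM of both and are called interferon-high here (19 in Young1, 12 in Young2 and 25 in AY_Y3), 465 had less than 20 CPM of both and are called interferon-low, and 180 lay between. The groups were alike in depth, with medians of 595658 counts and 2231 genes in interferon-high cells, against 600348 counts and 2109 genes in interferon-low cells. Pericyte markers moved with the groups. In interferon-high cells 6 of 10 were detected (Pdgfrb, Kcnj8, Higd1b and Notch3 at 0), with sums of 76.3 to 269 CPM. Interferon-low cells had 10 of 10 and 364 to 570.0 CPM. Oligodendrocyte markers were also lower in interferon-high cells in each set. Their sums were 1241, 1307 and 1094 CPM (6 of 8), against 1294, 1368 and 3194 CPM (8 of 8). So were microglia or macrophage markers, at 52.5, 3.64 and 62.5 CPM (3 of 10), against 63.1, 51.2 and 67.7 CPM (8 of 10). Endothelial markers (13 of 13 in both) summed to 14161, 14764 and 15194 CPM, against 15020, 14964 and 15727 CPM. The part of these lists in the results was not tested. Interferon-high cells made up 11.2% of arterial-like, 5.88% of venous-like and 6.61% of capillary-like cells.

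Ly6a, Ly6c1 and Ly6e were each higher in interferon-high cells in 3 of 3 sets, but no gene passed in edgeR. Ly6a had 8095 CPM in Young1, 6220 in Young2 and 7279 in AY_Y3 in interferon-high cells, against 5876, 5056 and 5893 CPM in interferon-low cells. Every interferon-high value stood above every interferon-low one. Ly6c1 had 8645, 7366 and 8859 CPM in interferon-high cells, against 7180, 6704 and 7654 CPM in interferon-low cells, with overlap between sets. Ly6e had 1813, 1460 and 1085 CPM in interferon-high cells, against 1338, 1256 and 924 CPM in interferon-low cells, also with overlap. Ly6c2 had 1.64, 1.21 and 1.91 CPM in interferon-high cells, against 1.37, 1.08 and 1.39 CPM in interferon-low cells.

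The fitted log2 differences in edgeR were 0.47 ± 0.11 for Ly6a, 0.32 ± 0.11 for Ly6c1, 0.41 ± 0.15 for Ly6e and 0.41 ± 0.67 for Ly6c2 (SE). Their unadjusted p-values were 0.00881, 0.0295, 0.0442 and 0.572 in edgeR's fit across all genes, and every adjusted p was 1. Of the 8813 genes tested 0% passed in edgeR, with 282 at an unadjusted p under 0.05, while limma on mean log2 values called 8. DESeq2 called 10.1% of the genes in either direction and 1.99% as higher; among the higher were Ly6a (adjusted p = 6.94e-09), Ly6c1 (7.92e-07) and Ly6e (0.0057). DESeq2 was the only one of 11 alternatives in which any of the 3 passed, and the adjusted p over these alternatives reached 0.999 for Ly6a. Over the 11 alternatives the log2 difference ran from 0.23 to 0.55 for Ly6a, from 0.08 to 0.36 for Ly6c1 and from 0.06 to 0.81 for Ly6e; the lowest values came with upper-quartile scaling for Ly6a and Ly6c1 and at 100 CPM of both interferon genes for Ly6e. The median log2 difference over all genes was -0.35 in the edgeR fit, and Ly6a stood 0.82, Ly6c1 0.67 and Ly6e 0.76 above it, but that median depended on the fit. Without the replicate block it was -0.00094, with Ly6a at 0.47, Ly6c1 at 0.32 and Ly6e at 0.43, and in limma it was 0.03, with 0.55, 0.28 and 0.81. The list of 45 interferon response genes, which leaves out Ifit3 and Isg15, had 40 tested members with a median of 1.45, of which 36 were positive, 22 had an unadjusted p under 0.05 and 0 passed in edgeR.

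**Figure D4:**
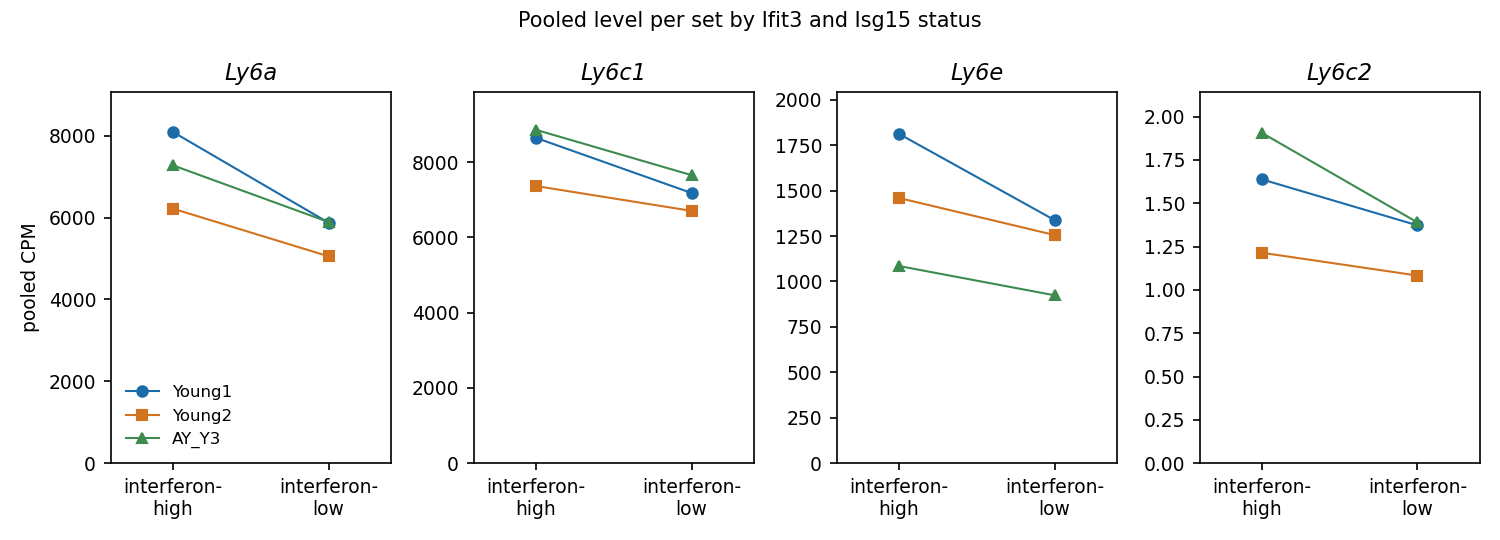
Pooled CPM (vertical axis, from 0) of each Ly6 gene in interferon-high cells (at least 20 CPM of both Ifit3 and Isg15) and interferon-low cells (under 20 CPM of both), with 1 line per set. All lines of Ly6a, Ly6c1 and Ly6e are higher at the interferon-high end, and the lines of the sets lie apart.

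Cell by cell, Ly6a and Ly6c1 had the highest mean r of the 3 sets among pairs of members, though not the highest r in each set. Correlations were taken over endothelial cells within each set, on log2(CPM + 1), and are descriptions: both values of a cell share its library and depth. Pearson's r between Ly6a and Ly6c1 was 0.43 in Young1, 0.26 in Young2 and 0.75 in AY_Y3, sets that hold 30.5%, 33.95% and 35.5% of the 701 cells. The value of AY_Y3 rested on few cells, since 1 deep cell of that set, with 1666420 counts, had none of either gene and 534 CPM of Ly6e. Without the 2 cells of each set lowest in Ly6c1, an alternative chosen after seeing the data, r was 0.42, 0.28 and 0.50, and Spearman's rho over all cells was 0.39, 0.38 and 0.52.

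Ly6e and Ly6c1 had an r of -0.03, 0.04 and 0.10 in Young1, Young2 and AY_Y3 and a Spearman's rho of 0.05, 0.11 and 0.22, while Ly6e and Ly6a had an r of 0.19, 0.19 and 0.16 and a rho of 0.22, 0.14 and 0.27. Ly6c1 and Ly6c2 had an r of 0.39, 0.34 and 0.24, which in Young2 was above the 0.26 of Ly6a and Ly6c1, and Ly6a and Ly6c2 had 0.24, 0.17 and 0.25. After thinning to 50000 counts a cell, Ly6c1 and Ly6c2 had 0.06, 0.09 and 0.11, Ly6a and Ly6c2 had 0.02, 0.03 and 0.07, and Ly6a with Ly6c1 kept 0.44, 0.26 and 0.75. Correlations with the interferon genes were weak throughout. With Isg15, Ly6a had 0.25, 0.14 and 0.11, Ly6e 0.17, 0.11 and 0.15, and Ly6c1 0.15, 0.06 and 0.10. With Ifit3 they lay between 0.04 and 0.14. Values of this size in sparse counts are no finding on their own.

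Among 3953 other genes seen in at least 20% of endothelial cells, the genes most like each member were ranked by the mean r of the 3 sets. For Ly6a they were Ly6c1 (0.48), Ifitm3 (0.36), Fxyd5 (0.29), B2m (0.29) and Slc6a6 (0.29). Ifitm3 is an antiviral membrane protein, B2m the light chain of class I antigen presentation, and Slc6a6 the taurine transporter. For Ly6e they were Ifitm3 (0.21), Rabac1 (0.18), Ly6a (0.18), Mrfap1 (0.17) and B2m (0.16). For Ly6c1 they were Ly6a (0.48), Ly6c2 (0.32), Stmn2 (0.24), Glul (0.23), the glutamine synthetase, and Amd1 (0.22). Bmx stood at place 15 for Ly6c1 and place 52 for Ly6a, and Isg15 at place 12 for Ly6e, 32 for Ly6a and 82 for Ly6c1. For Ly6c2, whose reads are few, they were Ly6c1 (0.32), Ly6a (0.22), Prss23os (0.21), Mgp (0.18) and Prss23 (0.18). Thinned to 50000 counts, the mean r of Ly6c2 was 0.09 with Ly6c1 and 0.04 with Ly6a. Only 6.42% of endothelial cells then kept a Ly6c2 read, which by itself lowers r, so thinning cannot tell depth from co-expression here. With so few reads, the ranking for Ly6c2 is not to be read as co-expression. Prss23os and Prss23 are named as antisense partners, and without a known strand setting their reads cannot be told apart.

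**Figure D5:**
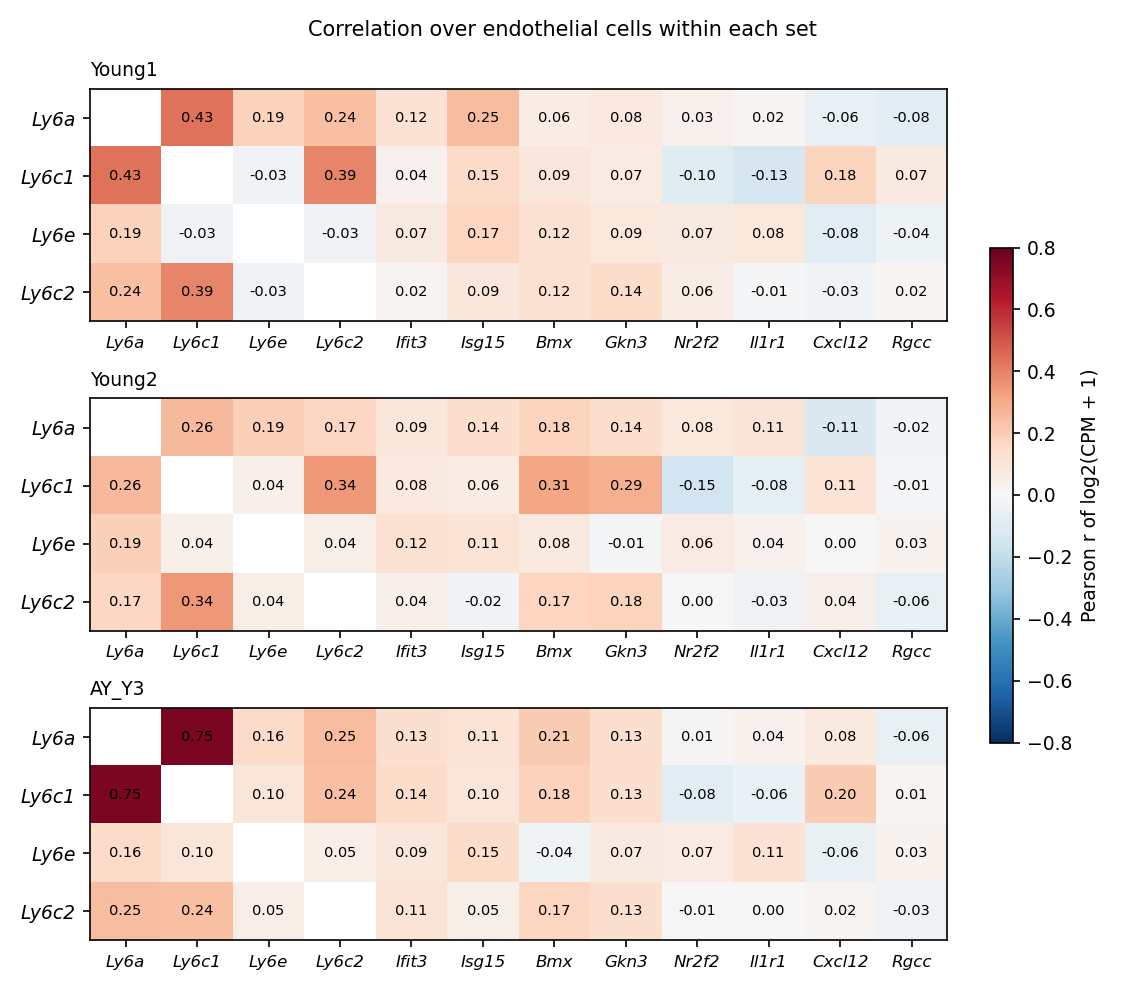
Pearson's r of log2(CPM + 1) over the endothelial cells of each set, for the 4 Ly6 genes (rows) with each other and with interferon, arterial, venous and capillary genes (columns); red is positive and blue negative. By the mean of the 3 sets, Ly6a with Ly6c1 (0.48) and Ly6c1 with Ly6c2 (0.32) are the highest pairs of members; in AY_Y3, Ly6a with Ly6c2 (0.25) is level with Ly6c1 with Ly6c2 (0.24). Ly6e with Ly6c1 is near 0 in Young1 and Young2.

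Other members of the family were mostly rare. Of 36 listed Ly6 and uPAR relatives, the 4 members included, 16 have their symbol in the table and 8 reached 5% of the cells. Cd59a, the complement regulator of cell membranes, was detected in 79.3% of cells, and Plaur, the urokinase receptor itself, in 19.6%. Lypd1 was detected in 16.8% of cells and Lynx1, a modulator of nicotinic receptors in brain, in 10.9%. The rest were seen in few cells: Ly6i in 12 cells, Cd59b in 9, Ly6g6d in 6, Gpihbp1, which carries lipoprotein lipase across capillaries, in 5, Ly6g, the neutrophil antigen, and Lypd2 in 3 each, Lypd6b in 2 and Lypd6 in 1.

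Among the 8 relatives tested, Lypd1 had the largest log2 differences between segments. It had 185.6, 185.6 and 193.4 CPM in the arterial-like cells of Young1, Young2 and AY_Y3, against 0.00, 3.35 and 0.38 CPM in venous-like and 0.62, 6.13 and 20.96 CPM in capillary-like cells. Its log2 difference was 8.61 ± 1.79 to venous-like cells (edgeR adjusted p = 0.0497, 7.62e-07 to 0.337 over 14 alternatives and passed in 5; 0.0769 to 0.225 with 1 set left out) and 5.53 ± 1.59 to capillary-like cells (edgeR adjusted p = 0.186, passed in 3 of 14). Lypd1 also leads the cluster that makes up most of the arterial-like class. Cd59a, Plaur and Lynx1 did not pass between arterial-like and the other classes in edgeR. All 8 tested relatives, the members among them, had a median log2 difference of 0.45 between arterial-like and capillary-like cells, against -0.02 over all genes.

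Genes of the same routes were counted from lists. Of 40 tested interferon response genes, 1 differed between the arterial-like and the capillary-like class, near the 1.87% of all genes that passed: Ifitm3 had 1404, 1293 and 1534 CPM in arterial-like cells, against 842, 772 and 912 CPM in capillary-like cells (log2 difference 0.75 ± 0.12, edgeR adjusted p = 0.0252). The list's median was 0.50, against -0.02 over all genes. Between arterial-like and venous-like cells 2 of the 40 passed, against 2.84% of all genes, both higher in arterial-like cells: Irf7, the interferon regulatory factor, with 307 ± 31 CPM in arterial-like and 83.7 ± 23.2 in venous-like cells (1.92 ± 0.27, edgeR adjusted p = 0.00951), and Lgals3bp, a secreted galectin ligand, with 345 ± 46 and 122.7 ± 7.2 CPM (1.51 ± 0.30, 0.0393). The list's median there was 0.38. Of 12 tested interferon receptors and signalling genes 0 passed in any of the 4 comparisons in edgeR, with 3 under an unadjusted p of 0.05 between arterial-like and venous-like cells and 1 between venous-like and capillary-like cells. With 1 set left out, Ifitm3 lost its call each time (0.0594 to 0.241) and so did Lgals3bp (0.0591 to 0.223), while Irf7 lost it without Young2 or AY_Y3 (up to 0.175).

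Antigen presentation, the class I route that interferon also feeds, had 17 tested genes with a median of 0.61 between arterial-like and capillary-like cells. Of these, 2 passed, where 1.87% of all genes passed in either direction and 0.866% were called higher: H2-D1, a classical class I heavy chain, with 3992 ± 710 CPM in arterial-like and 2441 ± 529 in capillary-like cells (log2 difference 0.72 ± 0.10, edgeR adjusted p = 0.0148), and H2-Q7, with 76.8 ± 36.8 and 6.54 ± 3.99 CPM (3.49 ± 0.65, 0.0416). Class I genes are close copies of each other, so their counts are uncertain. Of 18 tested genes that build and transfer the GPI anchor, 0 passed in that comparison, with 1 at an unadjusted p under 0.05 and a median of 0.00. Of 8 other GPI-anchored surface proteins tested there, 1 passed, against the same 1.87% of all genes: Alpl, the tissue-nonspecific alkaline phosphatase, had 1257, 1324 and 1742 CPM in arterial-like cells, against 215.4, 232.03 and 214.6 CPM in capillary-like and 89.3, 65.6 and 26 CPM in venous-like cells. Its log2 differences were 2.74 ± 0.38 to capillary-like cells and 4.72 ± 0.42 to venous-like cells (edgeR adjusted p = 0.0137 and 0.00199). With 1 set left out, H2-Q7 lost its call each time (0.0532 to 0.411), H2-D1 without Young2 or AY_Y3 (up to 0.227), and Alpl against capillary-like cells without Young1 or Young2 (up to 0.178) and against venous-like cells without Young2 (0.0569).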

How the data were processed

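The authors deposited 1 table of raw read counts per gene symbol and cell; per the submitters' processing notes Bowtie 0.12.2 and the builds mm8 and mm10 were used, without their role. The counting tool, its annotation and its strand setting were not given in the sources used here. The deposited counts carry no molecular identifiers.

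The members and lists were chosen with earlier results of these data known. CPM are counts scaled to 1000000 in a cell or a sum. Cells were clustered on 2000 variable genes with scanpy 1.11.5 and leidenalg 0.10.2 (10 principal components, 15 neighbours, resolution 1, Python 3.11.15). A cluster was set aside where over 50% of another type's markers, and at least 3, were raised, which means a mean CPM of at least 1.25 times that of the other cells and a count in at least 25% of cells. The remaining cells were clustered on the segment markers, scaled within sets. A cluster took the class with at least 3 raised markers that had the most markers among its top 10 genes by fold, ties going to the larger share raised. This naming rule was chosen after the clusters were seen. No doublet caller was run; wells of other types were left out.

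Counts summed per set and class (9 sums) or per set and interferon group (6 sums) were tested with edgeR 4.0.16 in R 4.3.3 (quasi-likelihood, TMM) with the set as a block, since every class was summed within every set. Genes passed filterByExpr and had a count in 5% of the cells entering; genes that defined the groups were not tested. P-values were adjusted by Benjamini-Hochberg at 0.05. The classes come from the same cells, so genes that vary with the markers can differ between them. Alternatives used DESeq2 1.42.0 and limma 3.58.1. Of the tests, only the edgeR fit was also run on simulated counts. Named genes were the members, the markers of the comparison, every detected relative, up to 4 passed genes of each list by size of log2 difference, and the 5 genes most like each member. CPM per kilobase used the exons of coding transcripts in GENCODE M21, which may differ from the authors' annotation.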

Additional observations from a re-analysis of the deposited data

How the results depend on the processing

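Over the alternatives run, the 4 members kept their direction and their side of the threshold in 84.1% of values. The cause of the other changes was not tested. That share also counts comparisons that did not pass to begin with. Of the calls themselves, Ly6a and Ly6c1 against capillary-like cells each passed in 10 of 14 alternatives. Against venous-like cells Ly6a passed in 6 of 14 and Ly6c1 in 14 of 14. The share of tested genes that passed moved more. Between arterial-like and capillary-like cells it was 1.87%, against 6.17% in DESeq2, 6.83% in limma on mean log2(CPM + 1), 3.79% after thinning to 50000 counts a cell, 0.917% at Leiden resolution 2, 0.378% with no filter and 0.0984 to 0.636% with 1 set left out. For the arterial-like against the venous-like class it was 2.84%, against 8.48%, 21.1%, 5.15%, 1.20% and 0.659% in the same order, 1.29% with score ranges and 0.518 to 1.26% with 1 set left out. For the venous-like against the capillary-like class it was 0%, against 1.64% in DESeq2, 32.8% in limma, 0.36% after thinning, 0.11% and 0.0109% at Leiden resolutions 0.5 and 2, 0.011% with score ranges, 0.066% without the cells highest in mural markers and 0.00 to 0.011% with 1 set left out. Between interferon groups it was 0%, against 10.1% in DESeq2, 0.0868% in limma, 0.0123% after thinning and 0.0568% at 100 CPM of both genes.

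Without the replicate block for set the log2 differences between arterial-like and capillary-like cells were 0.48 for Ly6a and 0.42 for Ly6c1 and no longer passed, that of Ly6a against venous-like cells was 0.38 and no longer passed, and 0.011% of genes passed for the venous-like against the capillary-like class; the block changed no other call of a member. With 1 set left out the differences between arterial-like and capillary-like cells were 0.48 to 0.50 for Ly6a and 0.38 to 0.46 for Ly6c1, and that of Ly6a against venous-like cells was 0.32 to 0.45; none of these passed. The last also failed at Leiden resolution 2 (0.22), in limma (0.27), with score ranges (0.26) and after thinning (0.26). At resolution 2 the arterial-like class took in a cluster of 33 cells with 3 of 16 arterial and 8 of 11 capillary markers raised. A cluster of 36 cells with 9 of 16 arterial markers raised was left unnamed there. Calls gained were Ly6a for the venous-like against the capillary-like class in limma (0.40) and, between interferon groups in DESeq2, Ly6a (0.52), Ly6c1 (0.36) and Ly6e (0.46).

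Small differences that did not pass turned their sign. Between arterial-like and capillary-like cells Ly6e was -0.0166 at Leiden resolution 2, -0.0454 with no filter, -0.0271 after thinning, -0.0394 with upper-quartile scaling, -0.0081 without the cells highest in mural markers, -0.0053 without interferon-high cells and -0.0167 to 0.0653 with 1 set left out. Ly6e was -0.33 against venous-like cells in limma, and for the venous-like against the capillary-like class it was 0.35 in limma and -0.089 to 0.0289 with 1 set left out. Ly6c2 was -0.0423 for the venous-like against the capillary-like class at Leiden resolution 0.5, and -0.64 and -0.0851 between interferon groups at 100 CPM and in capillary-like and unnamed cells. Between arterial-like and capillary-like cells Cd59a was -0.003 at Leiden resolution 0.5, -0.085 after thinning and -0.13 to 0.26 with 1 set left out. For the arterial-like against the venous-like class Cd59a was -0.54 in limma, and Lynx1 was 0.0306 at Leiden resolution 0.5 and -1.57 to 0.0726 with 1 set left out. Thinned Ly6c2 was too low to be tested. Depth limits Ly6c2 above all, seen in 6.58% of cells once thinned. With each set taken as 1 sample, differences between mice and between preparations cannot be told apart.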
